A study of Mus musculus with 855 samples.

Results

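Starburst amacrine cells of postnatal day 11 (P11) mouse retina were divided by 2 genes, and the rest of their messenger RNA was compared. Groups were chosen by measured fragments of these genes in each cell. A *Fezf1* cell held at least 1 sequenced fragment of *Fezf1* and none of *Rnd3*, and a *Rnd3* cell the reverse. Of 855 cells in the series, 74 cells named as set a and 75 named as set b came from P11, and of these 24 were *Fezf1* cells and 97 were *Rnd3* cells. A further 28 cells held neither gene and 0 held both, which allows a share of at most 2.01% of cells with both.

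Starburst amacrine cells are the cholinergic interneurons of the retina, and they also release GABA. Starburst cells of the ON type lie in the ganglion cell layer and those of the OFF type in the inner nuclear layer, and each type spreads its dendrites in its own stratum of the inner plexiform layer, where they drive direction-selective ganglion cells. *Fezf1*, a zinc finger transcription factor, is known from the ON type, and *Rnd3*, an atypical small GTPase, from the OFF type. At P11 both dendritic layers are in place and the eyes are still closed.

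All cells came from *Chat* Cre/+; *ROSA-LSL* tdTomato/+ mice on a C57BL/6 background, at P1, P4, P8, P11 or P16. In these mice Cre is driven by *Chat* and switches on the red protein tdTomato. Red cells were sorted singly, and each was sequenced as its own Smart-seq2 library. Retinas of several mice were used at each age and the labels name no mouse, so the cells of P11 were treated as 1 sample and no P11 difference carries a p-value. Cell names divide P11 into sets a and b, and the labels do not say whether these are plates or mice. The sets are shown side by side as a view of the spread, not as replicates.

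Set a held 15 *Fezf1* and 47 *Rnd3* cells, and set b held 9 and 50. *Fezf1* cells made up 16.1% of P11 cells (exact Clopper-Pearson 95% interval 10.6 to 23) and *Rnd3* cells 65.1% (56.9 to 72.7). These intervals cover counting error only and leave out variation between mice, because the labels do not name the mouse of a cell. The defining genes parted cleanly: *Fezf1* reached a median of 41.5 fragments in *Fezf1* cells, with 1 fragment in the lowest cell and 6 in the next, and *Rnd3* ran from 2 fragments, with 19 in the next cell, to 590 in *Rnd3* cells. Outside its group each gene had 0 fragments in every cell. These values chose the groups and are a description only. Both genes were left out of all counts that follow.

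Depth was somewhat higher in *Rnd3* cells. Median fragments per cell were 245760 in *Fezf1* and 269991 in *Rnd3* cells of set a, and 246387 and 292747 in set b. Genes per cell, counted above 0.1 FPKM (a fragment number scaled by transcript length and by the depth of the cell), had medians of 4910 and 5179 in set a. In set b these were 4132 and 4734. Both groups carried the 8 starburst markers, of which 0 were missing from either group, with a summed median of 2463 FPKM in *Fezf1* and 2800 FPKM in *Rnd3* cells. The summed cone, ganglion cell, Müller glia, microglia and other amacrine markers had a median of 0 FPKM in both groups, with single cells above it. The 5 cone markers were all at 0 in *Fezf1* cells, and 3 of them in *Rnd3* cells, whose highest sum was 162.7 FPKM. Of 7 ganglion cell markers 5 were in 0 *Fezf1* cells (highest sum 73.4 FPKM) and 6 in 0 *Rnd3* cells (86.1), with *Slc17a6* at 0 in both. Of 4 microglia markers 3 were in 0 *Fezf1* cells (highest sum 52.2 FPKM) and 1 in 0 *Rnd3* cells (26.2). The 3 markers of other amacrine cells were all at 0 in *Fezf1* cells and 1 of them in *Rnd3* cells (highest sum 85.7 FPKM). In the endothelial list *Pecam1* and *Cldn5* were in 0 cells, and *Kdr* gave its summed medians of 0 and 12.9 FPKM. In the horizontal cell list *Lhx1* and *Onecut1* were in 0 cells, and its FPKM came from *Calb1*. The part of these markers in the results was not tested. Of the cells, 3 *Fezf1* and 6 *Rnd3* cells carried a label of having been filtered out by the study and were kept here. Their labels give the cell type as unknown.

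Level ratios were taken within each set as log2 of the mean FPKM plus 1 in *Fezf1* cells over that in *Rnd3* cells, so positive values mean higher in *Fezf1* cells. Among 8227 genes with a mean of at least 5 FPKM in either group in both sets, 2.10% were at least 2-fold higher in *Fezf1* cells in both sets and 4.47% (368 genes) were at least 2-fold higher in *Rnd3* cells. Another 336 genes (4.08%) passed 2-fold in opposite directions in the sets, so a 2-fold ratio in both sets was by itself a weak mark. Across the 8227 genes the ratios of set a and set b had a Pearson correlation of 0.130, which describes these genes and tests nothing. Over all compared genes the median ratio was −0.05 (set a) and −0.17 (set b). Single high cells mattered: without the highest cell of each group and set for each gene, which is 1 of 9 *Fezf1* but 1 of 50 *Rnd3* cells in set b, the shares of genes were 0.778% and 14.01%.

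When a gene also had to be present, with at least 1 fragment, in at least 50% of the cells of the higher group in each set, 29 genes remained on the side of *Fezf1* cells (0.352%) and 75 on the side of *Rnd3* cells (0.912%). With the same demand, 25 genes went opposite ways in the sets. Ranked by the smaller of their set ratios, the first 12 genes of each side are called the leading genes below. Shares of cells gave a shorter list, with 6 genes found in a share at least 50 percentage points higher in *Fezf1* cells in both sets (0.0729%), 8 in *Rnd3* cells (0.0972%) and 0 that went opposite ways.

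**Figure D1:**
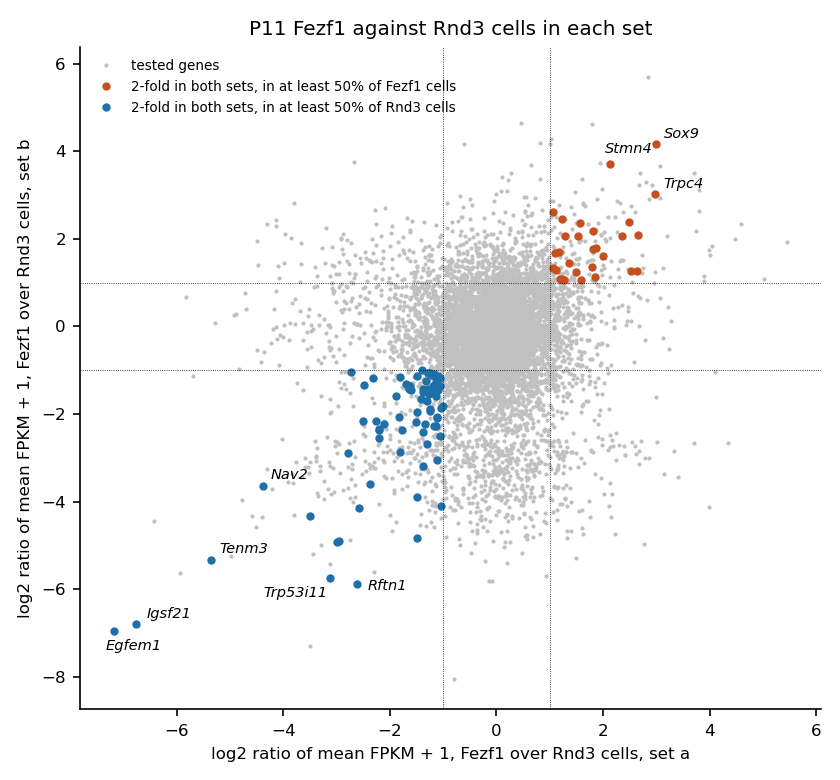
Each point is 1 of the 8227 genes, with the log2 ratio of mean FPKM plus 1 (*Fezf1* over *Rnd3* cells) in set a on the x axis and in set b on the y axis, and dotted lines at a 2-fold ratio. The 29 orange and 75 blue genes passed 2-fold in both sets and were present in at least 50% of the higher group, and *Egfem1*, *Igsf21* and *Tenm3* lie farthest from the grey mass.

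The transcription factor gene *Sox9*, an HMG-box factor known from progenitors and Müller glia as well, led the side of *Fezf1* cells. It lies at chr11:112782224-112787760 on the plus strand of GRCm38. In set a *Sox9* ran from 0 to 61.2 FPKM over *Fezf1* cells with a median of 7.26, and in set b from 0 to 54.4 with a median of 12.7. Its median was 0 in *Rnd3* cells of both sets, with a highest cell of 30.2 FPKM in set a and 11.8 in set b. The ranges overlapped, but most *Rnd3* cells had none: *Sox9* was present in 20 of 24 *Fezf1* cells (83.3%, interval 62.6 to 95.3) and 6 of 97 *Rnd3* cells (6.19%, 2.30 to 13). Mean levels were 16.7 against 1.23 FPKM in set a and 21.3 against 0.237 in set b, 13.6-fold and 89.8-fold higher. In set b only 1 of 50 *Rnd3* cells held *Sox9*, so the *Rnd3* mean there rests on 1 cell. Of 7 Müller glia markers, *Slc1a3*, *Rlbp1* and *Kcnj10* were in 0 cells of either group and *Vim* in 0 *Fezf1* cells. The 2 that could be compared, *Glul* and *Apoe*, were each in 4 of 24 *Fezf1* cells and in 15 and 10 of 97 *Rnd3* cells, and their median log2 ratio (0.79 in set a, 1.94 in set b) had the direction of *Sox9*. All 7 together summed to between 0 and 220.3 FPKM over *Fezf1* cells and between 0 and 107.97 over *Rnd3* cells, and their part in the *Sox9* difference was not tested.

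*Trpc4*, a cation channel opened downstream of G protein-coupled receptors, had a median of 30 FPKM in *Fezf1* cells of set a and 19.5 in set b, with highest cells of 127.6 and 127.5. In *Rnd3* cells its median was 0 in both sets and the highest cells reached 80 and 70.8 FPKM. The groups overlapped in their ranges, while the means stood 9.15-fold apart in set a and 10.1-fold in set b, and *Trpc4* was present in 20 of 24 against 16 of 97 cells. *Rgs2*, a regulator that shortens G protein signalling, averaged 108.97 against 18.6 FPKM in set a and 87.2 against 15.9 in set b. It was found in 22 of 24 *Fezf1* cells and 38 of 97 *Rnd3* cells. *Adcy2*, an adenylyl cyclase, had log2 ratios of 1.57 and 2.35, and *Necab2*, a neuronal calcium-binding protein, 2.00 and 1.60.

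*Rapsn* encodes rapsyn, which gathers nicotinic acetylcholine receptors at the neuromuscular junction. Its mean was 320 FPKM in *Fezf1* and 91 in *Rnd3* cells of set a, and 177.3 against 51.1 in set b. The log2 ratios were 1.80 and 1.78. The ranges overlapped in both sets. In set a the highest cells were a *Rnd3* cell at 1918 FPKM and a *Fezf1* cell at 789, and in set b they were 340 and 606. *Stmn4*, a stathmin that binds tubulin, was present in 18 of 24 *Fezf1* cells and 9 of 97 *Rnd3* cells, with log2 ratios of 2.12 and 3.71.

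*Ass1*, argininosuccinate synthase, averaged 161.05 against 45.3 FPKM in set a and 145.3 against 31.5 in set b. *Gm5424*, a processed pseudogene of *Ass1*, followed it with log2 ratios of 1.52 and 2.07 beside 1.81 and 2.17 for *Ass1*. Of the 1166 windows of 75 bases in the pseudogene, the length of 1 read, 65.3% occur without a mismatch in *Ass1* transcripts, so reads of the pair cannot be assigned with certainty. By the rule both count among the 12 leading genes of *Fezf1* cells, and 11 remain when the pair counts once. *Arg2*, the mitochondrial arginase, was present in 13 of 24 against 21 of 97 cells, with ratios of 2.66 and 2.10, and it overlaps *Vti1b* on the other strand. *Fam210b*, a mitochondrial membrane protein, had ratios of 1.86 and 1.79.

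The remaining leading transcript, RP23-24C14.1, lies at chr9:10904345-10907818 and overlaps the 5′ end of *Cntn5*, which is read from the other strand. Smart-seq2 does not mark strand, so fragments in the overlap could come from either. The transcript was found in 19 of 24 *Fezf1* and 23 of 97 *Rnd3* cells. *Cntn5*, a contactin that mediates adhesion between neurites, was found in 21 and 34 cells, with a mean of 179.7 against 28 FPKM in set a and 78.8 against 32 in set b.

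**Figure D2:**
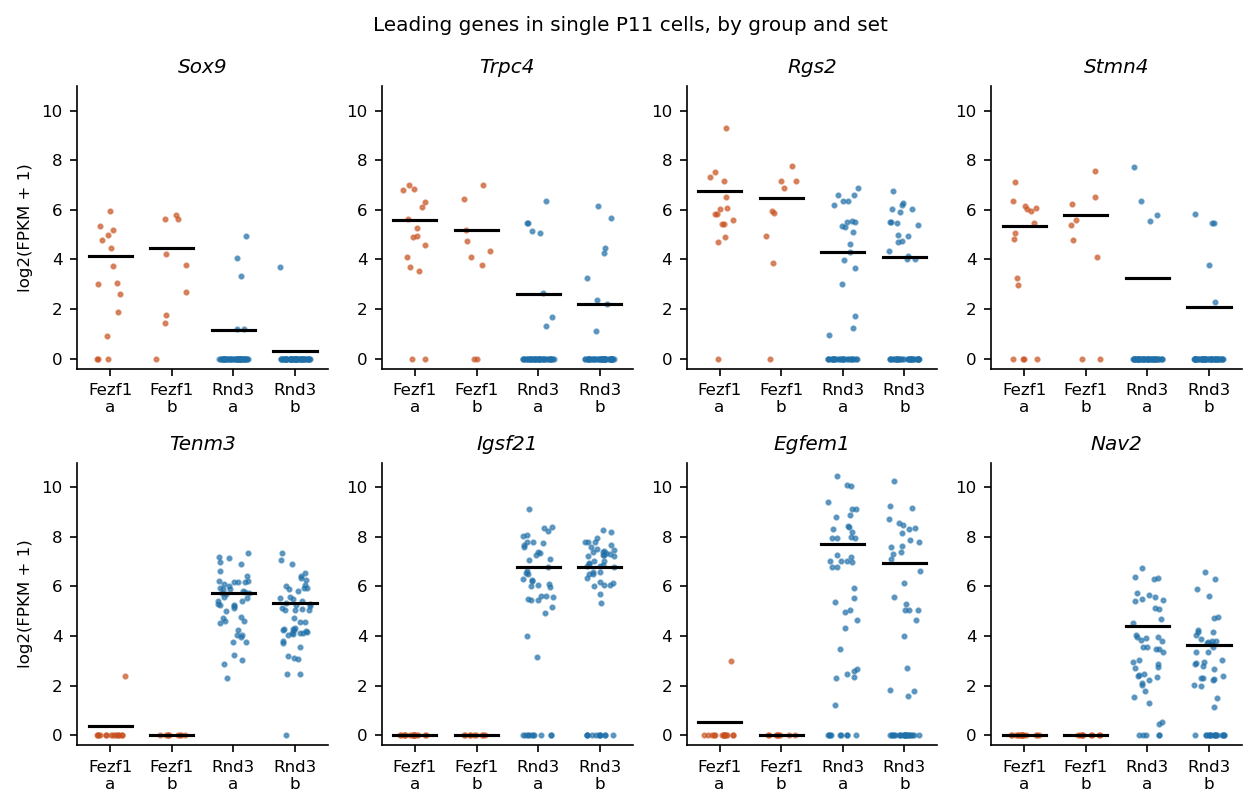
Each point is a P11 cell, with log2(FPKM + 1) on the y axis and the group and set on the x axis, and black bars mark log2 of the mean FPKM plus 1. *Sox9*, *Trpc4*, *Rgs2* and *Stmn4* were present in 18 to 22 of 24 *Fezf1* and 6 to 38 of 97 *Rnd3* cells, and *Tenm3*, *Igsf21*, *Egfem1* and *Nav2* in 0 or 1 *Fezf1* cell.

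On the side of *Rnd3* cells the leading genes include adhesion genes. *Tenm3*, a teneurin that binds latrophilins and helps to match neurites of one layer, lies at chr8:48227682-48843951 on the minus strand. Its level ran from 3.99 to 159.7 FPKM over *Rnd3* cells of set a, with a median of 45.7, and from 0 to 161.3 in set b, with a median of 32.2. Of 24 *Fezf1* cells 1 held *Tenm3*, at 4.28 FPKM, against 96 of 97 *Rnd3* cells (99%, 94.4 to 100). Except for that *Fezf1* cell, just above the lowest *Rnd3* values, and a *Rnd3* cell at 0, the groups did not overlap.

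*Igsf21*, an immunoglobulin-domain adhesion protein that binds neurexins, lies at chr4:140026846-140246784 on the minus strand. It was at 0 in all 24 *Fezf1* cells, which allows a share of up to 12.5% by the rule of 3 counts (3 of 24 cells), and present in 76 of 97 *Rnd3* cells (78.4%, 68.8 to 86.1). In *Rnd3* cells its median was 66.6 FPKM in set a, with a highest cell of 556, and 112.96 in set b, with a highest cell of 312. *Egfem1*, a protein with EGF-like and EMI domains, was present in 67 of 97 *Rnd3* cells, with single cells up to 1388 FPKM (set a) and 1205 FPKM (set b), and in 1 *Fezf1* cell at 6.86 FPKM. Means were 0.457 against 210.0 FPKM in set a, and in set b *Egfem1* was listed at 0 in *Fezf1* cells against 123.5 in *Rnd3* cells.

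*Nav2*, a neuron navigator that acts on the cytoskeleton of growing neurites, was likewise in 0 of 24 *Fezf1* cells, with the same limit of 12.5%, and 76 of 97 *Rnd3* cells, at means of 20.0 and 11.4 FPKM in the *Rnd3* cells of the sets. *Gpr26*, an orphan G protein-coupled receptor, was in 0 of 24 (up to 12.5%) and 55 of 97 cells, at a low mean of 5.88 and 6.36 FPKM in *Rnd3* cells. Its locus overlaps *Fgfr2* on the other strand. *Trhde*, the ectoenzyme that degrades thyrotropin-releasing hormone, was in 1 of 24 and 65 of 97 cells. *Nav2*, *Gpr26* and *Trhde* were therefore each found in more than 50% of *Rnd3* cells and in at most 1 *Fezf1* cell. The locus of *Trhde* overlaps *Gm15723* on the other strand, and *Tenm3*, *Igsf21*, *Nav2* and *Rapsn* overlap other-strand genes as well.

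Of the 12 leading genes of *Rnd3* cells, 2 encode potassium channel subunits. *Kcnk12*, a tandem-pore channel subunit, was found in 1 of 24 *Fezf1* and 62 of 97 *Rnd3* cells, and its mean in *Rnd3* cells was 26.3 FPKM in set a and 29.1 in set b. *Kcnc4*, a voltage-gated subunit of the fast-acting Kv3 type, was found in 3 of 24 and 80 of 97 cells, with log2 ratios of −2.96 and −4.89. Of 38 genes compared in a list of potassium channel subunits and KCTD proteins, 2 were at least 2-fold higher in *Fezf1* cells in both sets (*Kcnab2* and *Kcna4*) and 4 in *Rnd3* cells (*Kcnk12*, *Kcnc4*, *Kctd15* and *Kcnc2*), beside 2.10% and 4.47% over all genes. *Kctd15* encodes a protein with a tetramerization domain and no channel. The median ratio over the 38 was −0.11 in set a and 0.19 in set b.

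The other leading genes of *Rnd3* cells were found in 52 to 56 of the 97 *Rnd3* cells. *Trp53i11* was found in 3 of 24 against 56 of 97 cells and *Rftn1*, a protein of membrane rafts, in 2 of 24 against 52 of 97. *Src*, a tyrosine kinase, was found in 7 of 24 against 53 of 97 cells, with all 7 in set a. *Phtf1* was found in 4 of 24 against 52 of 97, and it overlaps *Magi3* and *Phtf1os* on the other strand.

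To see whether shares followed depth, each cell was thinned to 150000 fragments, which left out 1 *Rnd3* cell and 0 *Fezf1* cells. *Tenm3* was then in 4.17% of *Fezf1* and 99% of *Rnd3* cells, *Igsf21* in 0% and 78.1%, and *Sox9* in 79.2% and 5.21%. Each of these shares moved by less than 5 percentage points. After thinning, 0.0608% of genes had a share at least 50 percentage points higher in *Fezf1* cells in both sets, beside 0.0729% before. On the side of *Rnd3* cells 0.0972% did so before and after.

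**Figure D3:**
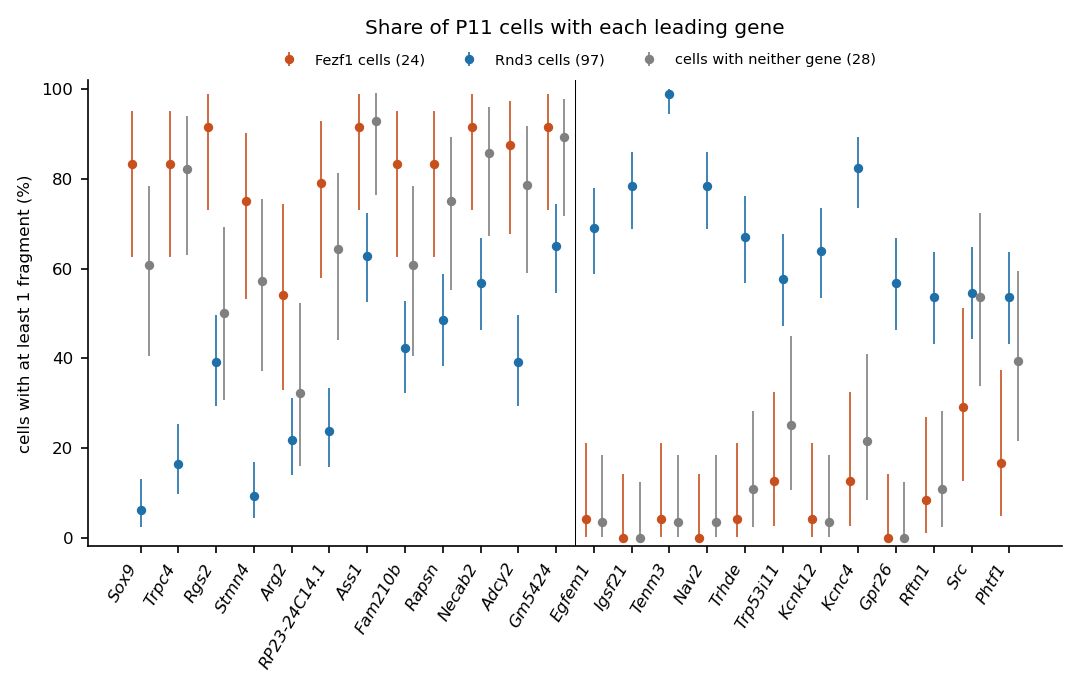
The y axis gives the share of cells (%) with at least 1 fragment of each leading gene, with exact 95% intervals, in *Fezf1* cells, *Rnd3* cells and P11 cells with neither gene. Left of the vertical line are the 12 leading genes of *Fezf1* cells and right of it the 12 of *Rnd3* cells, and the grey points of the cells with neither gene lie near the orange ones for most genes, with *Rgs2*, *Arg2*, *Src* and *Phtf1* among the exceptions.

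Guidance molecules of the Sema6A pathway differed by less than 2-fold. *Sema6a*, a transmembrane semaphorin, was present in 23 of 24 *Fezf1* and 92 of 97 *Rnd3* cells, with means of 55.8 against 73.3 FPKM in set a and 84.9 against 77.3 in set b, so the sets differed in direction. *Plxna2*, its plexin receptor, was present in 24 of 24 and 95 of 97 cells, with log2 ratios of −0.47 and −0.18. Of 6 semaphorin genes compared, 0 were at least 2-fold higher in *Fezf1* cells and 2 in *Rnd3* cells in both sets, beside 2.10% and 4.47% over all genes. In a list of 6 a single gene is already above those shares, and the list counts here and below are descriptions. *Sema5a*, a transmembrane semaphorin, was found in 5 of 24 and 54 of 97 cells, at means under 10 FPKM. *Sema3a*, a secreted semaphorin, was found in similar shares (5 of 24 and 25 of 97), with ratios of −2.38 and −3.22 and highest *Rnd3* cells of 456 FPKM in set a and 131.3 in set b.

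*Slit2*, the secreted ligand of Robo receptors, had log2 ratios of 0.69 and 1.05 and so missed the 2-fold rule in set a. Its shares differed more, with 86.7% of *Fezf1* against 34% of *Rnd3* cells in set a and 88.9% against 34% in set b. It is 1 of the 6 genes of *Fezf1* cells past 50 percentage points in both sets, with *Cntn5*, *Rgs2*, *Sox9*, *Stmn4* and *Trpc4*.

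Adhesion genes past 2-fold lay on both sides, with counts to be read beside 2.10% and 4.47% over all genes. Of 19 contactin and immunoglobulin adhesion genes, *Cntn5* was 2-fold higher in *Fezf1* cells and *Igsf21* and *Nfasc* in *Rnd3* cells in both sets. *Nfasc*, neurofascin of the axon initial segment, was present in most cells of both groups (17 of 24 and 79 of 97), with means of 11.9 against 33.4 FPKM in set a and 10 against 33.5 in set b. Of 13 leucine-rich repeat and teneurin genes, *Lrrtm1* and *Flrt3* were higher in *Fezf1* cells and *Tenm3* and *Lrrc4c* in *Rnd3* cells. *Lrrtm1*, a postsynaptic partner of neurexins, averaged 181.1 against 70.2 FPKM in set a and 145.4 against 52.3 in set b.

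Among 13 neurexin, neuroligin and other synaptic organizer genes, 2 were higher in *Fezf1* cells and 0 in *Rnd3* cells. These counts are to be read beside 2.10% and 4.47% over all genes. *Nptx1*, a pentraxin that clusters glutamate receptors, averaged 59.1 against 23.6 FPKM in set a and 73.7 against 17 in set b. *Nxph4*, a neurexophilin, was found in 10 of 24 and 12 of 97 cells. Of 35 protocadherin genes, which include those of starburst dendrite self-avoidance, 4 were higher in *Fezf1* cells and 2 in *Rnd3* cells, beside 2.10% and 4.47% over all genes. *Pcdhb5* and *Pcdha5* were found in only 4 and 5 *Fezf1* cells, and *Pcdh15* in 3 of 24 against 34 of 97 cells. Ephrin and Eph genes gave 1 and 2 of 11, of which *Epha10* was found in 9 of 24 *Fezf1* and 72 of 97 *Rnd3* cells.

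A neuropeptide gene present in nearly all cells differed in level. *Pnoc*, the precursor of nociceptin, ran from 82.6 to 2581 FPKM in *Rnd3* cells of set a with a median of 502, and from 153.95 to 2657 in set b with a median of 471. In *Fezf1* cells it ran from 0 to 453 FPKM with a median of 104.3 in set a, and from 26.6 to 254 with a median of 92 in set b. The ranges overlapped, and the median of each *Rnd3* set lay above every *Fezf1* cell. Means were 4.63-fold higher in *Rnd3* cells in set a and 5.2-fold in set b.

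*Pdyn*, the precursor of dynorphins, lay on the other side, in 11 of 24 *Fezf1* and 9 of 97 *Rnd3* cells with log2 ratios of 3.81 and 2.63. *Sst*, somatostatin, was found in 4 of 24 *Fezf1* cells and 0 of 97 *Rnd3* cells, which allows up to 3.09%. *Cck* was found in 0 cells of both groups, which allows up to 12.5% of *Fezf1* and 3.09% of *Rnd3* cells. Of 7 neuropeptide genes compared, 2 were higher in *Fezf1* cells and 1 in *Rnd3* cells, beside 2.10% and 4.47% over all genes.

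Transmitter genes were present in both groups, with *Chat* at a lower level in *Fezf1* cells. *Slc18a3*, the vesicular acetylcholine transporter, was in every cell of both groups at means of 671 against 675 FPKM in set a and 546 against 589 in set b. *Gad1*, which makes GABA, had log2 ratios of 0.05 and −0.17. *Chat*, choline acetyltransferase, was the 1 of 7 starburst genes past 2-fold, beside 2.10% and 4.47% over all genes. Its means were 70.4 against 151.5 FPKM in set a and 58.2 against 129.2 in set b. It was present in 20 of 24 and 89 of 97 cells, and the cells of both groups overlapped from 0 up to the highest *Fezf1* cell at 215 FPKM. *Slc18a3* lies within the *Chat* locus on the same strand, so the assignment of shared fragments could affect either gene. *Megf10*, a receptor of starburst cell spacing, had ratios of 0.01 and −0.46, and *Synpr*, a synaptic vesicle protein, −0.02 and 0.72.

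The list counts of receptors, channels and transcription factors that follow are to be read beside 2.10% and 4.47% over all genes. Of 12 GABA and glycine receptor genes, *Glra4* and *Glra2* were higher in *Fezf1* cells and *Gabrb2* in *Rnd3* cells. *Glra4*, a glycine receptor subunit, was found in 9 of 24 *Fezf1* cells (37.5%, 18.8 to 59.4) and 2 of 97 *Rnd3* cells (2.06%, 0.251 to 7.25), with means of 30.5 against 0.311 FPKM in set a and 11.7 against 1.5 in set b. Of 12 glutamate receptor genes 1, *Grik2*, was higher in *Rnd3* cells, with ratios of −1.89 and −1.74. *P2rx2*, an ATP-gated channel, was found in 5 of 24 and 10 of 97 cells with ratios of 0.56 and 1.60. The 2 cholinergic receptor, 15 calcium and sodium channel and 6 purinergic and monoamine receptor genes compared gave 0 past 2-fold in both sets in either direction. So did 16 transcription factor genes compared from a list of 70 that does not hold *Sox9*. *Zfhx3* of that list was under the minimum level, with ratios of −2.52 and −2.36. In the fit of P1, P4 and P8 given below, *Zfhx3* was lower and *Zfhx4* higher in *Fezf1* cells (limma adjusted p = 0.0437 and 0.0245).

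Among 31 synaptic vesicle genes 1 was higher in *Fezf1* cells and 2 in *Rnd3* cells, near the shares of 2.10% and 4.47% over all genes. *Cplx3*, a complexin, was common in both groups, with log2 ratios of −1.25 and −1.92. *Syt6* was found in 8 of 24 and 54 of 97 cells, and *Syt5* in 4 and 3. Of 10 immediate early and stress genes, 2 were higher in *Fezf1* cells and 0 in *Rnd3* cells, beside the same shares over all genes. *Dusp1*, a phosphatase induced by activity and by dissociation, was found in 12 of 24 *Fezf1* and 11 of 97 *Rnd3* cells. The other, *Gadd45b*, was found in 3 and 0 (up to 3.09%). *Fosb*, *Arc* and *Npas4* were in 0 cells of either group. The part of the *Dusp1* difference in other results was not tested.

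The 28 P11 cells with neither gene took no part in choosing the leading genes, and they were scored on them. The rule picked them for lacking *Rnd3*, so low scores on genes chosen to go with *Rnd3* may partly follow from the rule. Each cell was given the number of leading genes present on each side. *Fezf1* cells held 8 to 11 genes of their own side and 0 to 3 of the other, and *Rnd3* cells held 1 to 9 of the *Fezf1* side and 5 to 11 of their own. The genes were chosen on these cells, so their own scores restate the choice and only give a scale. All 28 cells with neither gene held more leading genes of *Fezf1* cells, at 3 to 11 with a median of 8, than of *Rnd3* cells, at 0 to 4 with a median of 1.5. Equal numbers are no neutral line here. *Rnd3* cells held a median of 4 genes of the *Fezf1* side, while *Fezf1* cells held a median of 1 of the *Rnd3* side. With *Gm5424* left out, so that *Ass1* and its pseudogene counted once, all 28 still held more of the *Fezf1* side, at 3 to 10 of 11 genes with a median of 7. Presence depends on depth. The cell with the lowest *Fezf1*-side score had 2499 genes, beside lowest cells of 3152 (*Fezf1*) and 3233 (*Rnd3*). The part of depth in these scores was not tested.

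Single genes varied in the cells with neither gene. *Igsf21* and *Gpr26* were in 0 of 28 of these cells, *Tenm3*, *Egfem1*, *Nav2* and *Kcnk12* in 1 each, and *Trpc4* in 23. *Sox9* was found in 17 (60.7%, 40.6 to 78.5), at a mean of 15.1 FPKM beside 18.4 in *Fezf1* cells and 0.717 in *Rnd3* cells. *Pnoc* averaged 202 FPKM in them, beside 126.3 and 602. Other genes went with the *Rnd3* cells: *Src* was in 15 of 28, *Epha10* in 21 of 28 and *Chat* at a mean of 119.7 FPKM, beside 65.8 and 140. When these 28 cells were joined to the *Fezf1* cells, which was tried after the data had been seen, genes in at least 50% of the higher group numbered 28 and 44, in place of 29 and 75, and 11 and 10 of the leading genes on each side stayed among them.

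**Figure D4:**
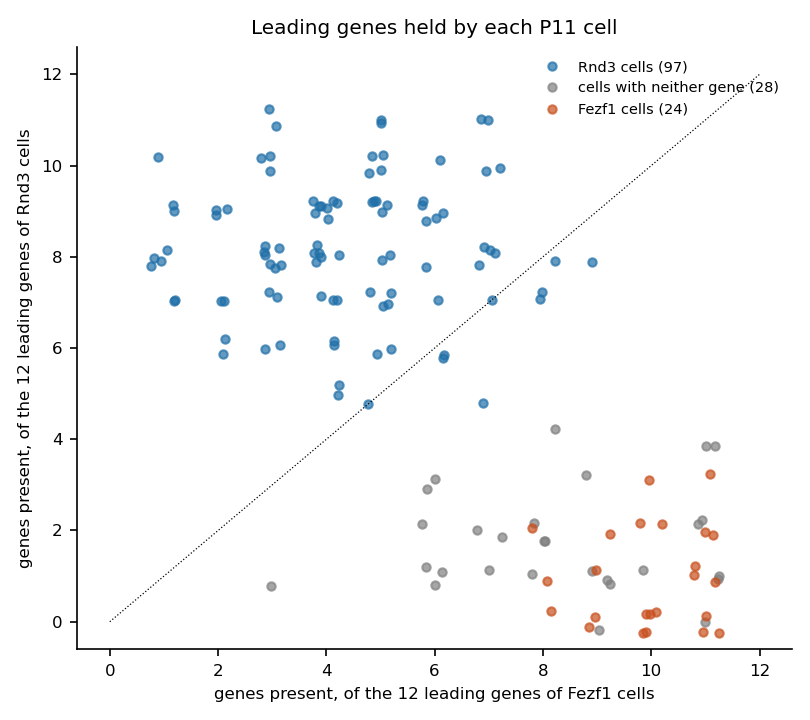
Each point is a P11 cell (jittered by up to 0.25), placed by how many of the 12 leading genes of *Fezf1* cells (x axis) and of *Rnd3* cells (y axis) it held, with a dotted line at equal numbers. The 28 grey cells with neither gene lie below the line, while the orange *Fezf1* and blue *Rnd3* cells are those on which the genes were chosen.

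P11 cells could not test the genes they had named, so the same split was tested at the other ages, whose cells come from other mice. Cells of P1, P4 and P8 were divided by *Fezf1* and *Rnd3* in the same way (46, 47 and 84 *Fezf1* cells, and 249 *Rnd3* cells in all), and their 6 group means were compared with limma, with age as a block and p-values adjusted by the Benjamini-Hochberg method over 11744 genes. At an adjusted p under 0.05, 32 genes (0.272%) were higher in *Fezf1* cells and 23 (0.196%) in *Rnd3* cells. Of the genes 2-fold higher in *Fezf1* cells at P11 that could be tested, 12 (7.41%) passed in the same direction and 0 in the other. Of the 368 genes higher in *Rnd3* cells at P11, 365 were tested, and 13 (3.56%) passed in the same direction and 0 in the other. The 12 include *Cntn5* and RP23-24C14.1, and the 13 include *Trhde* and *Gm15723*. Each pair overlaps on opposite strands and may share fragments, so its genes may not be separate calls. Among the 7665 tested genes not past 2-fold in both sets at P11, 14 (0.183%) and 5 (0.0652%) passed.

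Of the genes present in at least 50% of the higher group at P11, 8 of 29 passed on the side of *Fezf1* cells (27.6%) and 10 of 75 on the side of *Rnd3* cells (13.3%). The sign of the early difference matched P11 in 26 of the 29 (89.7%) and 56 of the 75 (74.7%). Over all genes past 2-fold at P11 the signs matched in 75.3% on the side of *Fezf1* cells and 56.7% on the side of *Rnd3* cells. Among the 7665 genes not past 2-fold, 62.5% were higher in *Fezf1* cells and 37.5% in *Rnd3* cells at the early ages, which is the share to read these beside. The 7665 genes were not held to the demand of 50% of cells, so they are an unlike background for the 29 and the 75.

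*Tenm3* and *Igsf21* had the largest differences of the leading genes at the early ages, with limma log2 differences of −5.89 ± 0.266 (SE, adjusted p = 0.000562) and −5.85 ± 0.284 (adjusted p = 0.000562). *Tenm3* averaged 49.1, 88 and 88.6 FPKM in *Rnd3* cells of P1, P4 and P8 and under 0.5 in *Fezf1* cells of each. *Trhde*, *Gpr26* and *Trp53i11* passed too (limma adjusted p = 0.0164, 0.0174 and 0.0421), all lower in *Fezf1* cells at each age.

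On the other side *Rapsn* (limma log2 difference 1.72 ± 0.123, adjusted p = 0.00310), RP23-24C14.1 (2.69 ± 0.225, 0.00546), *Sox9* (3.12 ± 0.319, 0.0146), *Stmn4* (1.38 ± 0.162, 0.0196) and *Trpc4* (2.16 ± 0.320, 0.0488) passed. *Rapsn* averaged 146.3 against 40.7 FPKM at P1, 188.06 against 55.2 at P4 and 293 against 97.4 at P8, so its ratio stayed between 1.58 and 1.82 at these ages. In all, 5 of 12 leading genes passed on each side.

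Beyond the leading genes, *Cntn5*, *Nptx1*, *Lrrtm1* and *Pdyn* were higher in *Fezf1* cells at the early ages (limma adjusted p = 0.00310, 0.00475, 0.0188 and 0.0164), and *Pnoc*, *Grik2* and *Nfasc* were lower (0.0174, 0.0226 and 0.0439). *Slit2* also passed, higher in *Fezf1* cells by 2.23 (limma adjusted p = 0.00310). Of 26 early genes of *Fezf1* cells that could be compared at P11, 23 had the same sign in both P11 sets. Of 18 early genes of *Rnd3* cells 17 did. The share of all genes with such signs was not taken, so these counts are descriptions. Early genes under the P11 minimum level are left out of them and were mixed. Among those, *Th* went the other way in both sets (−1.50 and −1.43), while *Zfhx3* kept its sign (−2.52 and −2.36).

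Several leading P11 genes did not pass at the early ages. *Rgs2* had log2 ratios of −0.02, −0.04 and 0.97 at P1, P4 and P8 (limma adjusted p = 0.716), *Arg2* 1.05, −0.09 and 0.51 (0.584), *Rftn1* −0.55, 1.45 and −3.53 (0.773) and *Src* 0.46, −0.14 and 0.03 (0.878). *Phtf1* was higher in *Fezf1* cells at each early age, by 1.39, 0.79 and 0.54 (limma adjusted p = 0.280), and lower at P11. *Kcnk12* was listed at 0 in *Fezf1* cells of P1 and P4, at 1.12 and 1.48 FPKM in *Rnd3* cells, and averaged 29.7 FPKM in *Rnd3* cells against 0.731 in *Fezf1* cells at P8 (limma adjusted p = 0.314). *Chat* had ratios of 0.60, 0.27 and −0.02 (limma adjusted p = 0.600), and *Synpr*, near even at P11 in set a, 0.57, 2.52 and 1.76 (0.117).

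These early calls depended on the fit, since limma without a minimum level called 0 genes among 17953 (1273 at an unadjusted p under 0.05) and limma without a mean-variance trend called 1 and 2. *Tenm3* and *Igsf21* stayed under an adjusted p of 0.05 in 7 of 8 other fits, and *Cntn5* and RP23-24C14.1 in 6. *Sox9*, *Rapsn*, *Nptx1* and *Gpr26* did so in 5, and *Stmn4*, *Trhde*, *Pnoc* and *Grik2* in 4. *Pdyn*, *Lrrtm1* and *Nfasc* did so in 3, *Trp53i11* in 2 and *Trpc4* in 1.

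**Figure D5:**
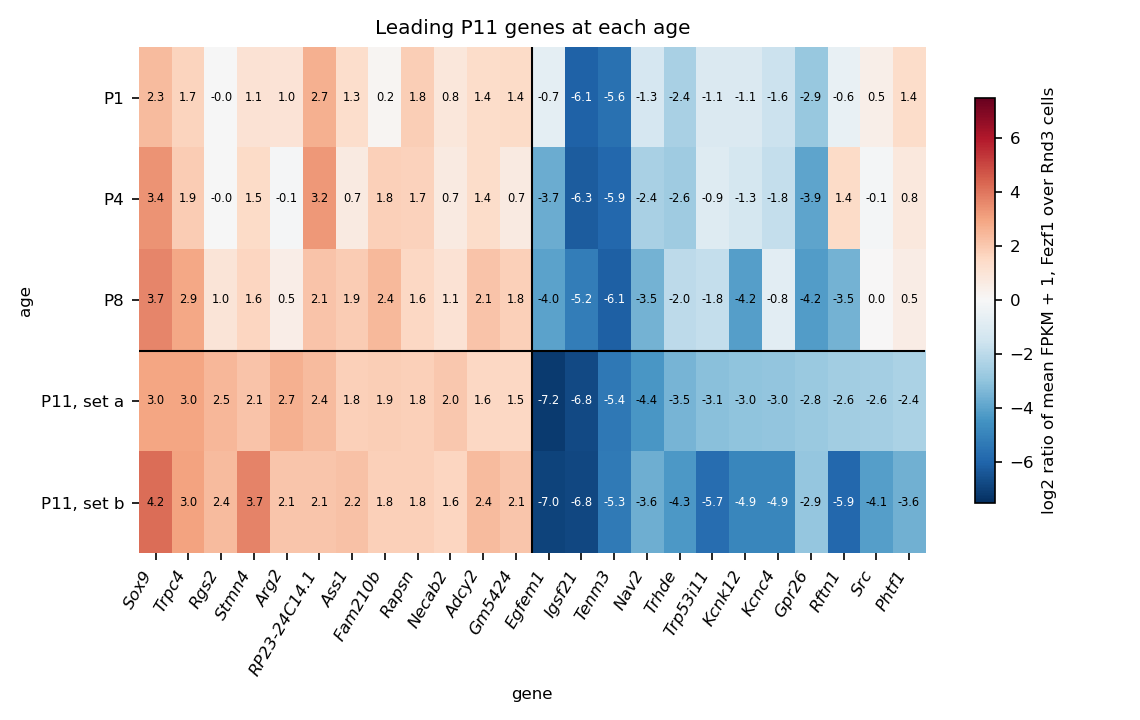
Colours and printed values give the log2 ratio of mean FPKM plus 1 (*Fezf1* over *Rnd3* cells) for the 24 leading P11 genes (x axis) at P1, P4, P8 and in the sets of P11 (y axis). *Tenm3* and *Igsf21* were below −5 in every row, and *Phtf1* was positive above the horizontal line and negative below it.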

How the data were processed

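Smart-seq2 libraries of 855 single cells had been read from both ends, 75 bases each. Per the submitters' processing notes, the authors used HISAT2 2.1.0, SAMtools 1.3.1, Cufflinks 2.2.1 and Cuffnorm with GRCm38.p6 (mm10), and the annotation release is not given in the sources used here. The authors scaled the deposited FPKM values to transcript length and to the depth of each cell. A second deposited table holds a signal, in which the authors divided their fragment estimates by each cell's size factor, a deposited ratio (0.441 to 3.22 at P11). Signal times size factor gave the fragments used for presence, of which 96.5% of nonzero P11 values lay within 0.01 of a whole number (6.87% of the signal as deposited). The products were not all whole, so no count test was run. P11 cells held 119011 to 565015 fragments, and 0 pairs of P11 cells had identical values.

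Each age was treated as 1 sample, because a deposited sample is 1 cell and no mouse is named. The groups, the gene lists and the comparison were chosen with earlier results of these data known. The genes named are the 12 per side with the largest smaller ratio of the sets among those past 2-fold in both sets and present in at least 50% of the higher group, 10 genes tied to the study (*Sema6a*, *Plxna2*, *Chat*, *Slc18a3*, *Gad1*, *Megf10*, *Synpr*, *Glra4*, *P2rx2* and *Cck*), and up to 3 genes past 2-fold in each list. Other names were added after their values had been seen (*Slit2*, marker genes and members of short counts). Scores without *Gm5424* were also added after the data had been seen. The pseudocount was 1 FPKM, with a minimum mean of 5 FPKM at P11 and 1 FPKM in the limma fit. A fold change on the log2(mean + 1) scale understates the change of low genes. Limma 3.58.1 in R 4.3.3 was run with a mean-variance trend, and the scripts were tested on simulated data. Coordinates are from GENCODE vM21 on GRCm38.p6. Python 3.11.15, numpy 2.4.6, pandas 2.3.3, scipy 1.17.1 and matplotlib 3.10.9 were used. Alternatives covered the cells kept, the pseudocount, the minimum level, the averaging and scaling of cells, and the terms and ages of the fit. Promoter and miRNA sequences were not used here. The rod and bipolar cell marker lists are not reported here.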

Additional observations from a re-analysis of the deposited data

Results flagged for a closer look

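*Phtf1* is singled out because its P11 ratios, −2.37 (set a) and −3.59 (set b), went against all 3 earlier ages, which had 1.39, 0.79 and 0.54. *Gabrb2* is singled out for the same reason, with −1.59 and −1.30 at P11 against 3.08, 0.24 and 0.80 at P1, P4 and P8. It was found in 5 of 24 *Fezf1* and 20 of 97 *Rnd3* cells at P11, nearly equal shares. The difference between ages was not tested for either gene.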

How the results depend on the processing

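At P11, 4 planned settings and 1 added after seeing the data changed a count of genes by more than 1.5 times. The counts were of genes past 2-fold in both sets, with or without the demand of 50% of cells. Without a minimum level 264 genes (0.894%) were higher in *Fezf1* and 933 (3.16%) in *Rnd3* cells, and with a minimum of 20 FPKM 56 (1.21%) and 2.26% of 4638, where the change of genes compared is part of the setting. Without the highest cells 64 genes (0.778%) and 1153 (14.01%) passed, with 2.30% in at least 50% of *Rnd3* cells. With the mean of log2 values only the counts with that demand changed so much. There, 95 genes (1.15%) and 2.27% passed in at least 50% of the higher group. With the cells of neither gene joined to the *Fezf1* cells, 2.12% were higher in *Rnd3* cells, and 44 genes (0.532%) with the demand of 50% of cells. All 12 leading genes of each side remained without the filtered-out cells, with 2 fragments of the defining gene, with a pseudocount of 0.1, with log means, with fragments scaled to cell depth, without the highest cells and without the 3 *Rnd3* cells of unusually high summed FPKM. Fewer remained with a minimum of 20 FPKM (11 and 7) and with cells above 3900 genes (11 and 12). Of 1038 single-gene ratios under alternatives, 362 moved by at least the standard deviation of the set ratios. Another 7, of genes past 2-fold in both sets, changed sign. Without the highest cell, set b gave −0.78 for *Pcdha5*, −0.10 for *Nxph4* and −2.08 for *Syt5*. With the cells of neither gene joined, set b gave 0.85 for *Src* and −0.24 for *Syt5*, and *Efna1* gave 0.75 (set a) and 0.66 (set b).

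In limma at P1, P4 and P8, genes higher in *Rnd3* cells fell to 15 (0.128%) with a pseudocount of 0.1. Without a minimum 0 and 0 (0%) were called, with 1273 at an unadjusted p under 0.05, and without the trend 1 (0.00851%) and 2 (0.0170%). Without the age as a replicate block, which pairs the means of 1 age, 4 (0.0341%) and 5 (0.0426%) were called. Leaving out an age gave 0.0598% to 1.91% of genes higher in *Fezf1* cells and 0.0512% to 0.974% in *Rnd3* cells, lowest without P4 and highest without P1. Where no construction is named, the cause was not tested. No paired analysis was possible within P11 because replicate numbers only name the cells. The bounds beside counts of 0 follow from the number of cells and limit cells with a fragment, not cells that express the gene.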
